A study of Mus musculus with 31 samples.

Results

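The genes described here are those that copy DNA and carry cells through mitosis, the division of the duplicated chromosomes between daughter cells. They were chosen by name from a list of 40 cell cycle genes, and a gene counted as found where at least 1 probe set of the array carried its symbol and no other. This gave 39 genes of the 18193 genes with such a probe set. Ccnb1, the gene of cyclin B1, was not analysed here. Of the 39 genes, 11 serve DNA replication and 28 serve mitosis and its control. Each gene was read from its brightest probe set, by the mean of all arrays.

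Skin of C3H/HeJ mice with established AA, read here as alopecia areata for this strain, was profiled on 31 arrays under 3 topical treatments named PBS, jak1i and jak3i. Each of the 3 arms had 3 arrays at 0, 6 and 12 weeks of treatment, and jak1i and jak3i had 2 further arrays each at 24 weeks. All groups therefore share the strain, the disease and the skin as tissue, and the arrays at 0 weeks come from before treatment in every arm. The compounds are known only by these codes, and neither dose, sex nor age is stated in the labels. Replicates are biological by the design text, which does not say whether the same mice were sampled again. The p-values thus measure the spread between these samples only, and that spread was taken per gene over all groups of arm and week together. The values are log2 RMA values as the authors deposited them, in which a difference of 1 stands for a 2-fold difference of signal. The keratinocyte genes Krt5 (12.42 to 13.74), Krt14 (12.97 to 14.05) and Lor (13.17 to 14.15) were high on every array.

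A cell that divides first licenses its replication origins with Cdc6, Cdt1 and the Mcm helicase. It then copies its DNA in S phase, and enters mitosis when Cdk1 is activated by cyclins A and B. The anaphase promoting complex, with Cdc20 and Ube2c, ends mitosis by marking cyclins for destruction. In skin the cells that divide are mainly basal keratinocytes of the epidermis and the matrix cells of growing hair follicles, and activated T cells that enter skin can divide too. Matrix cells divide rapidly and their daughters make the hair keratins of the shaft, so hair keratin RNA is a marker of follicles in growth. Whole skin was measured, so fewer dividing cells and less RNA per dividing cell cannot be told apart.

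Genes of these stages are known to be controlled through short promoter elements. The letters TTTGAA form the cell cycle homology region (CHR), through which MuvB complexes silence mitotic genes in resting cells, and CCAAT boxes recruit the factor NF-Y beside it. E2F sites serve genes of the S phase. Promoter windows of RefSeq on GRCm38.p6, from 250 bases before to 50 bases after the annotated start, were at hand for 34 of the 39 genes and for 14452 genes on the array. TTTGAA on either strand lay in 16 of 23 mitosis gene windows (69.6%), in 1 of 11 replication gene windows (9.09%) and in 15.7% of all windows. As E2F letters the search took TTCCCGC first, then the form with TTCGCGC in its place, then another spelled TTGCCGC and lastly one that reads TTGGCGC instead. On either strand one of these lay in 2 mitosis gene windows (8.7%), in 8 replication gene windows (72.7%) and in 16.0% of all windows. CCAAT lay in 78.3% and 72.7% of the windows, against 42.0% of all. The CCAAT box and the CHR letters occurred together in 15 mitosis gene windows (65.2%), against 6.21% of all. Matches of different motifs may overlap, the motifs were picked with the expression values known, and a match is a description of the letters and not a measured binding site.

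Shown are the last 100 bases before the start of 4 mitosis genes that hold the CHR letters on either strand, and of 2 replication genes that hold E2F letters. Capitals mark the CHR, CCAAT and E2F letters on either strand, and each line runs 5′ to 3′ along the strand of the gene.
Cdk1, the mitotic kinase, chr10:69352913-69353012, minus strand: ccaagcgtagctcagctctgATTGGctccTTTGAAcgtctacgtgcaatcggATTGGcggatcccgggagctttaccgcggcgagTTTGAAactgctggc
Cdc20, activator of the anaphase promoting complex, chr4:118437344-118437443, minus strand: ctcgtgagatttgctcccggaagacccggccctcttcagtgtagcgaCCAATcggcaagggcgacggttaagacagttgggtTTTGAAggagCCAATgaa
Ube2c, its ubiquitin conjugating enzyme, chr2:164769829-164769928, plus strand: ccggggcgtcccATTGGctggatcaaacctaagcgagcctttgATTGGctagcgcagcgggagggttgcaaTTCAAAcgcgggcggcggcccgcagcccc
Top2a, topoisomerase II alpha, chr11:99024190-99024289, minus strand: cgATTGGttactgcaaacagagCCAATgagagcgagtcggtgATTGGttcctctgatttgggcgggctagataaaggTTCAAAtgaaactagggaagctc
Mcm6, a subunit of the replicative helicase, chr1:128359706-128359805, minus strand: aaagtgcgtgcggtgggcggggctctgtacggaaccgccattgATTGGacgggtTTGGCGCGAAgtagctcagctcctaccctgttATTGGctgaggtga
Rrm1, a subunit of ribonucleotide reductase, chr7:102441595-102441694, plus strand: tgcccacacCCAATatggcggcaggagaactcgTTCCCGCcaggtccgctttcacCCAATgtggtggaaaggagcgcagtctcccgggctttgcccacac
In these stretches Cdk1 holds the CHR letters 15 and 71 bases before its start, Cdc20 holds it 18 bases before, and Ube2c and Top2a hold its reverse complement 29 and 23 bases before. The Mcm6 stretch has a pair of E2F matches that overlap, and no CHR letters. The counts above are for whole windows, and Plk1 and Aurka, for example, hold CHR letters only outside these 100 bases. The Cdk1 window holds E2F letters outside its stretch.

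The 39 genes differed widely in how far they moved over the 31 arrays. Bub1, a kinase of the spindle checkpoint, had the widest range, from 5.83 to 8.92, followed by Kif20a, a motor of cell separation, from 5.54 to 8.38, and Ccnb2, cyclin B2, from 6.60 to 9.28. Pcna, the sliding clamp of DNA polymerase, ranged only from 11.38 to 12.21, Foxm1, a transcription factor of mitotic genes, from 6.75 to 7.64, and Tyms, thymidylate synthase, from 4.15 to 5.13. The Tyms values lay below the median of all probe sets on every array (6.05 to 6.24), and whether they stand above background was not measured, so its narrow range and the flat values given for it below may not be those of the gene. To place each array, every gene was centred on its mean over the 31 arrays and the 39 centred values were averaged, which gives the cell cycle mean of an array. The Pearson correlation of single genes with this mean, which contains them, was 0.99 for Cdk1, Ccna2 and Birc5. It was lowest for Ttk (0.38), Tyms (0.42) and Foxm1 (0.46) and lay from 0.70 to 0.99 for the other 36 genes. Most of the 39 genes thus carry 1 shared pattern, and counts over them are not counts of independent genes.

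**Figure D1:**
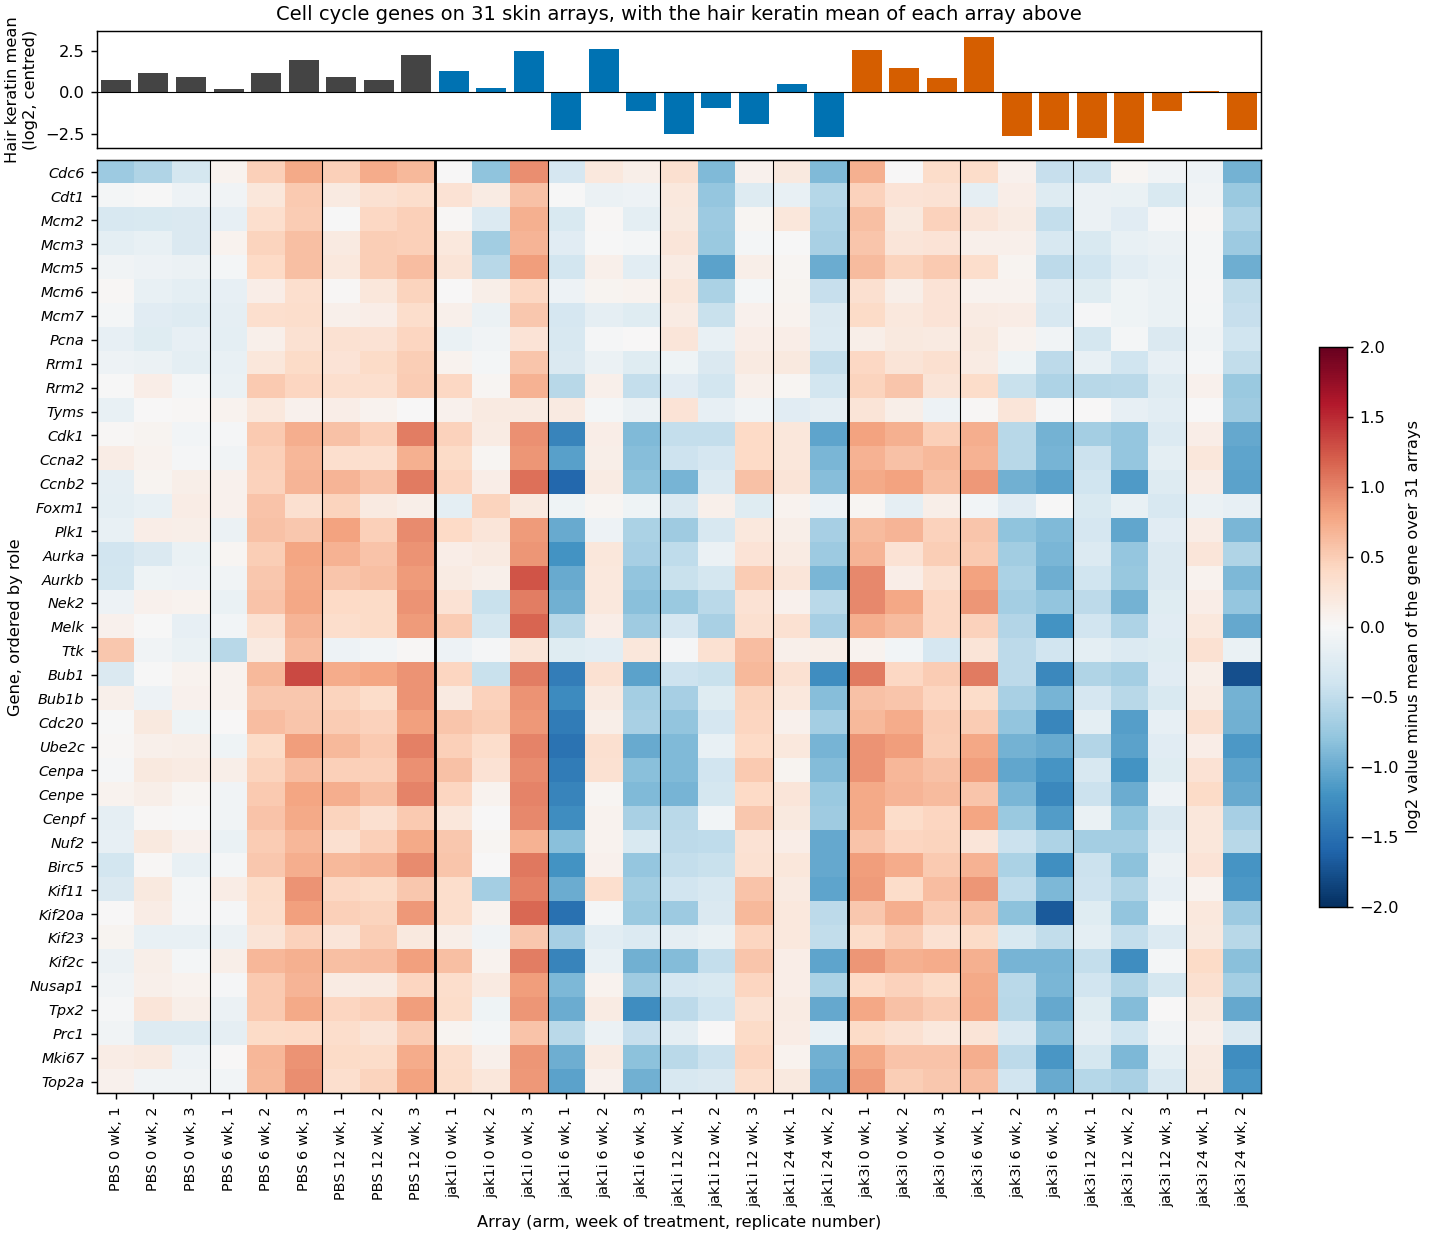
Each row is 1 of the 39 genes, ordered by role, and each column 1 of 31 arrays, ordered by arm, week and replicate; colour gives the log2 value minus the gene's mean over the arrays, and bars above give the hair keratin mean of the array in log2 units (grey PBS, blue jak1i, orange jak3i). Columns with bars below 0 are mostly blue in the mitosis rows, with replicate 3 of jak1i at 12 weeks as an exception, and the rows of Tyms, Foxm1 and Ttk are pale throughout.

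The hair keratin level of an array, taken as the mean of 12 centred hair keratin genes (Krt31 to Krt36, Krt33a and Krt33b included, and Krt81 to Krt84 and Krt86), ran from −3.02 to 3.35. It was above 0 on 19 arrays (0.11 or more) and below 0 on 12 (−0.96 or less). Below 0 lay only arrays of the inhibitor arms from 6 weeks on, while all 9 PBS arrays and all 9 arrays at 0 weeks lay above. On the 12 arrays with low hair keratins the cell cycle mean ran from −0.83 to 0.30, and on the other 19 arrays from −0.09 to 0.80.

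Across the 31 arrays the Pearson correlation of both means was 0.85 and the Spearman correlation 0.83, given as a description since the genes were chosen with results known. Without the 2 arrays farthest from the median keratin level, replicates 1 and 2 of jak3i at 12 weeks, Pearson's r was 0.84. Within the PBS arm r was 0.73 (9 arrays), within jak1i 0.74 (11) and within jak3i 0.93 (11). Among the 9 arrays at 0 weeks it was 0.83. Within the 19 arrays above 0 it was 0.62 and within the 12 below 0, which include replicate 3 of jak1i at 12 weeks, it was 0.29. All these sets except the jak3i arm cover a narrower keratin range than all arrays, and a narrower range can lower r. Its part here was not tested. When each array was expressed as its deviation from its own group, r was 0.87 over the 31 arrays. The 28 mitosis genes gave 0.86 and the 11 replication genes 0.66 over all arrays. Arrays share the mice's treatment and, in part, perhaps the mice, and the correlation is one of RNA levels in whole skin.

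**Figure D2:**
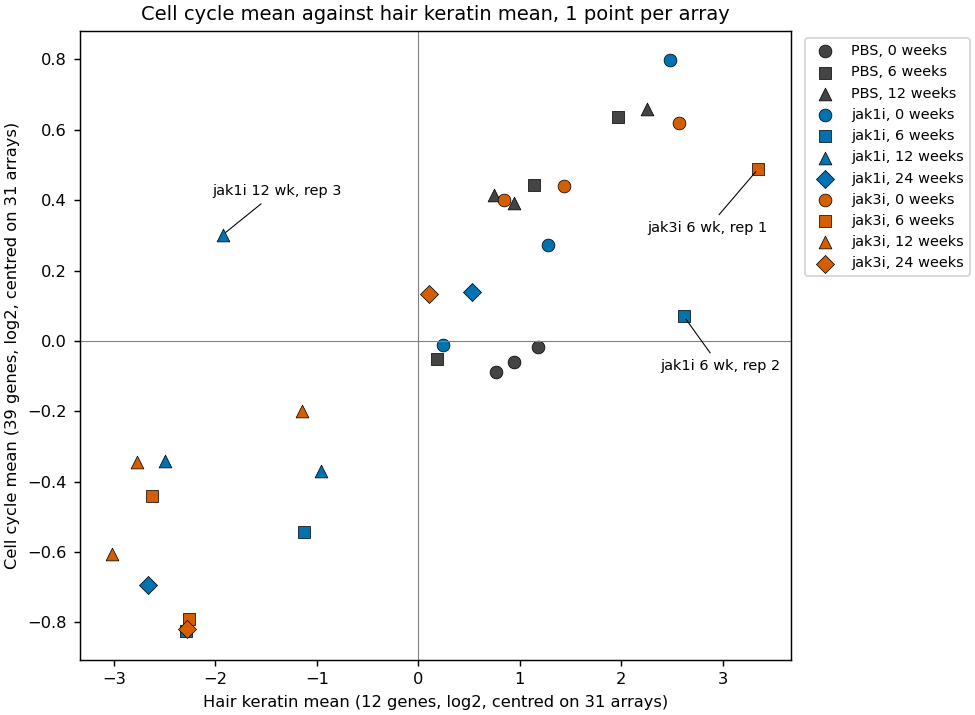
Each point is 1 of 31 arrays; the x axis gives the mean of 12 hair keratins and the y axis the mean of 39 cell cycle genes, both in log2 units centred on all arrays, with colour for the arm and shape for the week. The points run from lower left to upper right (r = 0.85), replicate 3 of jak1i at 12 weeks lies above the rest at low keratin, and replicate 2 of jak1i and replicate 1 of jak3i at 6 weeks stand at the right, apart from their groups.

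Arrays of the same group differed in both measures together. At 6 weeks of jak1i, replicate 2 had a hair keratin mean of 2.62 and a cell cycle mean of 0.07. Its group mates had keratin means of −2.29 and −1.12 and cell cycle means of −0.83 and −0.54. At 6 weeks of jak3i, replicate 1 stood at 3.35 and 0.49, against keratin means of −2.62 and −2.26 and cell cycle means of −0.44 and −0.79. At 24 weeks, replicate 1 of jak1i stood at 0.53 and 0.14 and replicate 2 at −2.67 and −0.69. The 24 week arrays of jak3i gave 0.11 and 0.13 for replicate 1, and −2.28 and −0.82 for replicate 2. In each of these 4 groups the array with the highest keratin level also had the highest cell cycle mean. Replicate 3 of jak1i at 12 weeks went the other way, with a keratin mean of −1.93 and a cell cycle mean of 0.30, the highest of its group, and without it the pooled r was 0.89.

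To test the relation apart from arm and week, each gene was fitted with limma on 11 group means and the hair keratin mean, which gives a slope within groups in log2 units per log2 unit of hair keratin. A gene was called where its Benjamini-Hochberg adjusted p over 18181 genes was under 0.05. Of the 39 genes, 31 had a called positive slope, none a called negative one, and 38 were positive, with a median slope of 0.25. Among all genes 10.4% had a called positive slope, and the median was 0. The genes share their pattern, so this count does not stand for 31 independent results. The count was 28 to 34 when each array was left out in turn. With the skeletal muscle or stress keratinocyte mean of the array as a second covariate it was 29, and with the T cell mean 31. Counts under changed settings, here and below, stand without the share of all genes called in the same setting.

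Ube2c shows the pattern in single arrays. In jak3i at 6 weeks it read 9.77 on replicate 1, where hair keratins were high, and 8.06 on replicate 2 and less on replicate 3. In jak1i at 6 weeks it read 9.33 on replicate 2 and 7.53 and 7.99 on the others. The PBS arrays at 0 weeks, alike in keratin level, read 9.03, 9.11 and 9.12. In these 3 groups Ube2c was spread where keratin levels differed most (keratin SD 3.35 and 2.56) and close where they were alike (0.21). Other groups did not keep this order, with a Ube2c SD of 0.33 at a keratin SD of 1.12 in jak1i at 0 weeks and of 0.64 at 0.78 in jak1i at 12 weeks. Its slope was 0.34 (SE 0.031, limma adjusted p = 4.84e-08).

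Among mitotic kinases, 7 of 8 had a called positive slope, with a median of 0.25. Bub1 had the steepest of all 39 genes, 0.38 (SE 0.0485, limma adjusted p = 6.27e-06), and Aurkb, which corrects faulty attachments of chromosomes, and Nek2, which separates centrosomes, had 0.29 each. Aurka, which builds spindle poles, had 0.25, Plk1 and Bub1b 0.24 each, and Melk 0.25. Ttk, the checkpoint kinase Mps1, had 0.09 (SE 0.0365, limma adjusted p = 0.0821) and was not called. Of the cyclins and their partners, Ccnb2 had 0.34, Cdk1 0.29 and Ccna2 0.27, all called, whereas Foxm1 stood at 0.02 (SE 0.0247, limma adjusted p = 0.681). Both partners of the anaphase promoting complex were called, Cdc20 at 0.27 beside Ube2c.

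All 5 centromere and kinetochore genes were called, with a median slope of 0.30. They were Cenpa (0.33), the histone variant that marks centromeres, the motor Cenpe (0.31), Birc5 (0.30), a subunit of the Aurora B complex, Cenpf (0.28) and Nuf2 (0.19). All 7 genes of spindle motors and microtubule binders were called as well. Kif11, which pushes spindle poles apart, Kif20a, Kif2c, which takes microtubules apart, and Tpx2, an activator of Aurka, had 0.30 each. Nusap1 had 0.23, and Kif23 and Prc1, both of the midzone where the cell separates, had 0.13 each. Mki67, the gene of the proliferation marker Ki-67, had 0.28 (SE 0.0376, limma adjusted p = 1.15e-05). Top2a, which untangles DNA, had 0.27 (SE 0.0344, limma adjusted p = 7.67e-06).

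Over all 31 arrays replication genes had a median slope of 0.09 and mitosis genes one of 0.28. Of 8 genes of licensing and the fork, 3 were called, namely Cdc6 at 0.15, Mcm5 at 0.14 and Mcm2 at 0.11, and the median was 0.08. Mcm3 (0.09), Mcm7 (0.06), Mcm6 and Pcna (0.05 each) and Cdt1 (0.02) were not called. Of the genes that supply nucleotides, Rrm2 (0.16) and Rrm1 (0.10), the subunits of ribonucleotide reductase, were called, and Tyms stood at 0.00. In the 15 arrays of PBS or 0 weeks alone the medians were 0.21 and 0.32, and 8 of 11 replication genes were called, Cdc6 (0.42), Mcm5 (0.35), Mcm3 (0.34), Mcm2 (0.30), Mcm7 (0.21) and Cdt1 (0.18) among them. In the 16 inhibitor arrays from 6 weeks on they were 0.05 and 0.27, and 1 of 11 was called, Rrm2. The slopes of replication genes and of mitosis genes were not tested against each other. The calls of Cdc6 and Mcm2 were lost under 28 of 42 and 31 of 43 alternative settings, and that of Mcm5 under 11 of 43.

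**Figure D3:**
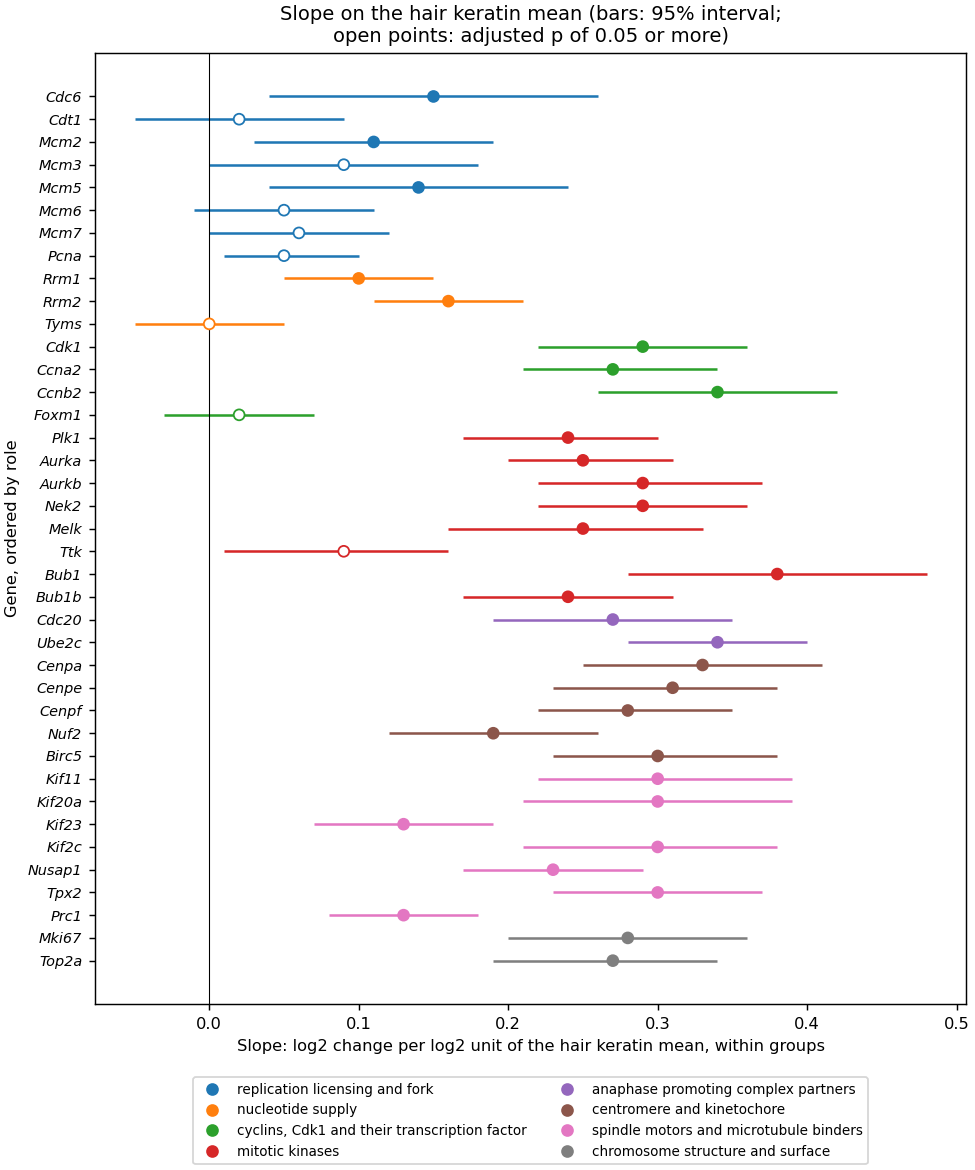
Points give the slope of each of the 39 genes in log2 units per log2 unit of the hair keratin mean, from the limma fit within 11 groups, with 95% intervals as bars and colour for the role; filled points had an adjusted p under 0.05. Mitosis genes lie mostly from 0.19 to 0.38, replication genes from 0.00 to 0.16, and the open points are Cdt1, Mcm3, Mcm6, Mcm7, Pcna, Tyms, Foxm1 and Ttk.

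The relation was also fitted apart in arrays without inhibitor and in arrays under one. In the 15 arrays of PBS or 0 weeks, 31 of 39 genes were called with a positive slope, against 2.93% of all genes, and the median slope was 0.29. In the 16 arrays at 6 weeks or later of an inhibitor, 27 of 39 were called, against 8.09% of all, with a median of 0.24. The difference of the slopes between both classes, added after the data had been seen, was called by limma for 0 of 39 genes and for 0% of all genes. At an unadjusted p under 0.05 it was 4 of 39, and the smallest adjusted p was 0.579. Mcm5 stood at 0.35 without and 0.11 with inhibitor and Mcm3 at 0.34 and 0.05, while Ube2c stood at 0.32 and 0.34. A lack of calls does not show that the slopes are equal.

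Other genes of the cycle were taken from lists that fit each step. Of 41 further mitosis genes, 36 had a called positive slope and 1 a called negative one. The steepest were Cep55 (0.35), which acts in the final cut between daughter cells, Aspm (0.29), a spindle pole protein, and Pbk (0.29), a mitotic kinase, and the negative one was Zwint (−0.08). Of 23 further replication genes, 9 were called positive, led by Uhrf1 (0.20), Tk1 (0.18) and Dut (0.16). Of 9 E2F and MuvB factors, 7 were called positive, led by Mybl2 (0.34), the B-Myb partner of MuvB, E2f2 (0.22) and E2f3 (0.20). Of 9 G1 cyclins and kinases, which act before S phase, 1 was called, Cdk4 at 0.11. Of 14 brakes of the cycle, Rbl1 (0.09), Cdkn1a (0.08) and Rb1 (0.08) were called positive and Rbl2 (−0.06) negative, and Cdkn2c had the largest size without a call (−0.11). These counts are read beside the 10.4% of all genes with a called positive slope and the 13.7% with a called negative one.

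The genes outside every list whose deviations from the group means were most like those of the cell cycle mean over the 31 arrays were Shcbp1 (r = 0.984), Kif20b (0.975), Pclaf (0.968), Spag5 (0.966), Dbf4 (0.966), Tacc3 (0.963), Sgo2a (0.957), Depdc1a (0.955), Arhgap11a (0.954) and Sgo1 (0.953). Their slopes on hair keratin ran from 0.12 for Arhgap11a to 0.42 for Depdc1a.

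Markers of other cells moved with hair keratins to differing degrees. All 8 hair matrix factors had a called positive slope (median 0.48), among them Shh (0.83), Msx2 (0.69) and Hoxc13 (0.54). On replicate 3 of jak1i at 12 weeks the matrix factor mean was 0.26, the highest of its group, beside its low keratin mean. Of 8 genes of stressed keratinocytes, 3 were called positive, and of 7 genes of basal and spinous epidermis 4 were called negative. Of 11 T cell genes, 1 was called positive (median slope 0.02), of 5 B and plasma cell genes 2 positive, and of 7 macrophage genes none by limma. Called negative were 3 of 5 sebaceous gland genes, 1 of 7 fat cell genes and 1 of 12 skeletal muscle genes. Among all genes 10.4% had a called positive slope and 13.7% a called negative one. The single calls in T cell, fat cell and skeletal muscle genes are near these shares and are not read as results about those cells. The deviations of the cell cycle mean correlated at 0.90 with those of matrix factors, 0.44 with those of stressed keratinocytes, 0.24 with those of T cells, −0.61 with those of sebaceous gland, −0.53 with those of basal and spinous epidermis and −0.45 with those of fat cells. Over all 31 arrays, with arm and week left in, the cell cycle mean correlated at 0.88 with matrix factors and 0.66 with stressed keratinocytes. With T cells it was 0.58, with sebaceous gland −0.74, with fat cells −0.65 and with basal and spinous epidermis −0.19. Across arm and week the cell cycle mean thus also went with markers of cells outside the follicle matrix. The part of each cell type in the cell cycle RNA was not tested.

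The PBS arm was followed over time first. From 0 to 12 weeks the cell cycle mean went from −0.09, −0.02 and −0.06 to 0.39, 0.41 and 0.66, and the median difference over the 39 genes was 0.54, against 0.03 over all genes. The groups did not overlap for 36 of 39 genes, which were higher at 12 weeks, against 15.7% of all genes. None of the 39 was called by limma, against 2.28% of all genes called in either direction, while 9 had an unadjusted p under 0.05. The hair keratin mean was 0.76, 1.18 and 0.94 at 0 weeks and 0.94, 0.75 and 2.25 at 12 weeks, which overlap.

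Pcna came nearest to a call. It read 11.62, 11.55 and 11.62 at 0 weeks and 12.09, 12.08 and 12.21 at 12 weeks, with groups clearly apart, and differed by 0.53 (SE 0.14, limma adjusted p = 0.0504). Cdc6, which loads the helicase, read 5.84, 5.97 and 6.21 and then 7.04, 7.31 and 7.21, a difference of 1.18 (SE 0.37, limma adjusted p = 0.0966). Aurka read 6.63, 6.72 and 6.88 and then 7.71, 7.58 and 7.91, a difference of 0.99 (SE 0.36, limma adjusted p = 0.159). Mki67 differed by 0.42 (SE 0.42) and Cdk1 by 0.68 (SE 0.41). The fit takes 1 spread per gene from all 11 groups, so these SEs hold the spread of other groups too. The SD of Mki67 was 0.15 in PBS at 0 weeks and 0.22 at 12 weeks, but 0.96 in jak3i at 6 weeks. A missing call here therefore rests in part on groups outside the comparison. With the hair keratin mean as a covariate 4 of the 39 genes were called, and in a fit to these 6 arrays alone 5 were.

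In the same comparison the median difference was 0.28 in G1 cyclins and kinases, 0.19 in E2F and MuvB factors and 0.08 in brakes. It was 0.42 in further replication genes and 0.47 in further mitosis genes, and no gene of these lists was called. Named next are the 3 genes per list with the largest change here, so they were picked by these values. They included E2f7 at 0.96 (SE 0.36, limma adjusted p = 0.177), E2f8 at 0.77, Cdca5 at 0.90, Spc24 at 0.81, Racgap1 at 0.75, Gmnn at 0.72, Tk1 at 0.70, Ccne2 at 0.71, Ccnd3 at 0.49, Ccnd1 at 0.42, Uhrf1 at 0.67, Rbl1 at 0.53, Btg2 at 0.50 and Tfdp1 at 0.34. Ccng1, a target of p53, stood lower at −0.56. The stressed keratinocyte mean was 0.22 to 0.81 at 0 weeks and 1.52 to 1.95 at 12 weeks, without overlap. Of 12 skeletal muscle genes 11 were called lower at 12 weeks, against 161 of all 18193 genes called lower. Array means of the muscle genes were −0.72 to 0.48 at 0 weeks and −5.89 to −2.66 at 12 weeks. The arrays of PBS at 12 weeks thus held less muscle RNA than all others. The part of these shifts in the cell cycle values was not tested.

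At 6 weeks the PBS arm lay between. The median difference from 0 weeks was 0.36 with 0 of 39 genes called by limma (3 at an unadjusted p under 0.05), against 0.0055% of all genes, and from 6 to 12 weeks it was 0.17 with 0 called (0 unadjusted), against 0.401% of all. Mki67 ranged from 10.49 to 11.37 at 6 weeks, which overlaps the 10.38 to 10.66 at 0 weeks.

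Under jak1i the median difference of the 39 genes at 6 weeks from 0 weeks was −0.95, and all 39 differences were negative. Called lower were 3 genes, Cdc20, Kif2c and Plk1, against 6.43% of all genes called lower, so the share of members was near that of all genes. Cdc20 read 10.37, 10.31 and 10.69 at 0 weeks and 8.42, 9.94 and 9.17 at 6 weeks, and fell by 1.28 (SE 0.42, limma adjusted p = 0.046). Kif2c read 8.37, 7.84 and 8.79 and then 6.44, 7.62 and 6.81, and fell by 1.37 (SE 0.44, limma adjusted p = 0.045). Plk1, the kinase that drives entry into mitosis, read 8.05, 7.89 and 8.51 and then 6.65, 7.55 and 7.02, and fell by 1.07 (SE 0.35, limma adjusted p = 0.048). In each of the 3 genes the highest array at 6 weeks was replicate 2, the one with high hair keratins. Without that array 21 of 39 genes were called, with the share of all genes in that fit not given here. Without either of the others 0 were, as without replicate 1 or 3 at 0 weeks, and without replicate 2 at 0 weeks 1 was. Under the keratin covariate 12 were called and the median was −0.47. In the same comparison 9 of 11 T cell genes and 6 of 8 stressed keratinocyte genes were called lower, and 4 of 7 fat cell genes and 3 of 5 sebaceous gland genes were called higher, against 5.94% of all genes called higher. Their part in the cell cycle values was not tested.

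At 12 weeks of jak1i the median difference from 0 weeks was −0.55, and 1 gene was called lower, against 6.5% of all genes. This was Cdt1, the licensing factor that is destroyed once replication starts. It read 9.75, 9.63 and 10.05 at 0 weeks and 9.68, 8.69 and 9.21 at 12 weeks, so that the groups overlap, and fell by 0.62 (SE 0.2, limma adjusted p = 0.0362). The call was lost without replicate 1 or 3 at 0 weeks or replicate 2 or 3 at 12 weeks. It was also lost with the keratin covariate, under which the median difference turned to 0.20. Keratin means of these groups did not overlap (0.25 to 2.48 and −2.5 to −0.96), so that fit extrapolates. Cdk1 read 9.11, 8.81 and 9.56 and then 8.17, 8.18 and 9.05, where replicate 3 overlaps with the start, and differed by −0.69 (SE 0.41). At 12 weeks 9 of 11 T cell genes and 5 of 8 stressed keratinocyte genes were called lower too. At 24 weeks, with 2 arrays, the median was −0.68 with 0 genes called by limma (4 at an unadjusted p under 0.05), against 1.19% of all genes. That median was −1.13 without replicate 1 at 24 weeks, −0.23 without replicate 2 and −0.13 with the keratin covariate.

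Under jak3i most differences from 0 weeks were negative as well, in all 39 genes at 6 and at 12 weeks and in 38 at 24 weeks, with few calls. At 6 weeks the median difference from 0 weeks was −0.84, and 0 of 39 genes were called by limma (24 at an unadjusted p under 0.05), against 3.15% of all genes. Replicate 1 again decided this count, since 26 of 39 were called without it, in a fit whose share of all genes called is not given here. Top2a read 11.01, 10.65 and 10.69 at 0 weeks, and 10.77 on that replicate but 9.77 and 9.15 on the others at 6 weeks.

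At 12 weeks of jak3i the median was −0.95, and 35 of 39 genes were lower without overlap, against 17.4% of all genes. Called lower were Rrm2, Nuf2 and Plk1, 3 of 39 genes, against 2.85% of all genes. Rrm2 read 10.58, 10.68 and 10.39 at 0 weeks and 9.57, 9.59 and 9.87 at 12 weeks, and fell by 0.87 (SE 0.25, limma adjusted p = 0.0344). Nuf2, which ties kinetochores to microtubules, read 7.57, 7.43 and 7.45 and then 6.31, 6.31 and 6.78, and fell by 1.02 (SE 0.31, limma adjusted p = 0.0416). Plk1 read 8.28, 8.33 and 8.11 and then 7.32, 6.61 and 7.43, and fell by 1.12 (SE 0.35, limma adjusted p = 0.0471). All 3 genes had every array at 12 weeks below every array at 0 weeks. Ube2c and Mki67 showed the same separation with differences of −1.38 (SE 0.47) and −1.11 (SE 0.42) that were not called.

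The 3 calls rested on the choice of arrays. None was left without replicate 1 or 2 at 0 weeks or replicate 1 or 2 at 12 weeks, 1 was without replicate 3 at 0 weeks, and 4 were without replicate 3 at 12 weeks. In a fit to these 6 arrays alone 29 of 39 genes were called, and after centring each array on its median 24. How many of all genes these fits called is not given here, so both counts cannot be read as particular to the 39 genes. With the hair keratin mean as covariate 0 were called, with a median difference of −0.04. At 24 weeks the median was −0.89, with 36 of 39 genes lower without overlap, against 11.8% of all genes. There 0 genes were called by limma (27 at an unadjusted p under 0.05), against 0.11% of all, and 2 were without replicate 1 at 24 weeks. The median at 24 weeks was −1.37 without replicate 1, −0.39 without replicate 2 and −0.32 with the keratin covariate. Hair keratins and T cell genes were low in the same arrays at 12 weeks. In jak3i the hair keratin mean went from 0.85 to 2.56 down to −3.02 to −1.15, without overlap, so the keratin covariate extrapolates here. The T cell mean went from 0.10 to 0.71 down to −1.26 to −0.82. Of 11 T cell genes 6 were called lower, against 2.85% of all genes.

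**Figure D4:**
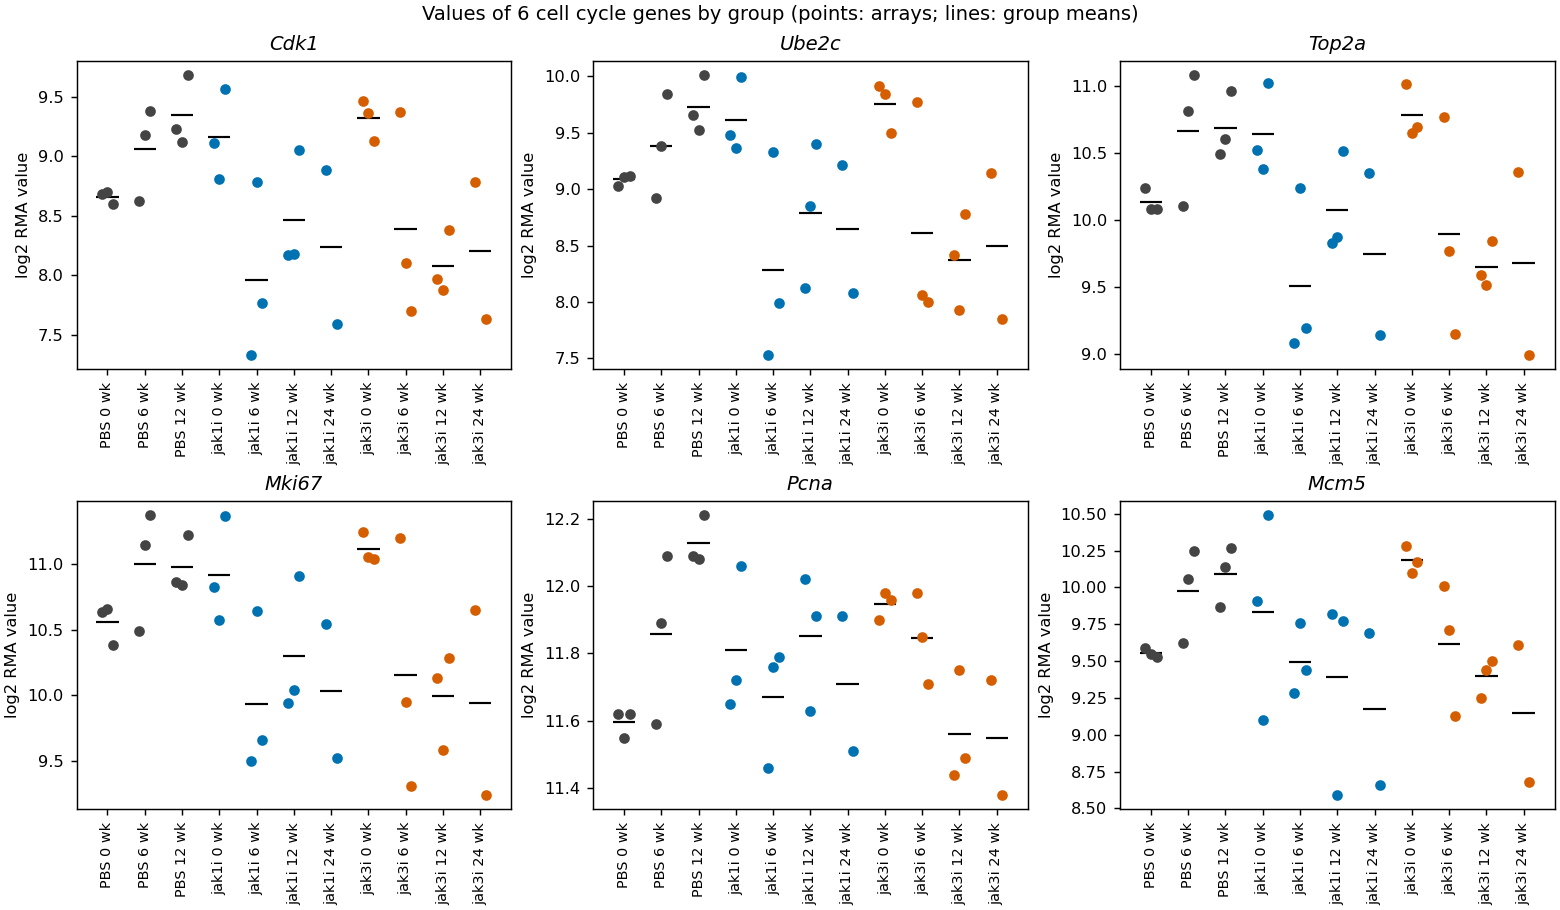
Points give the log2 RMA value of each array for Cdk1, Ube2c, Top2a, Mki67, Pcna and Mcm5, by arm and week, and lines give group means. In the 4 mitotic genes the 6 and 24 week inhibitor groups are spread widely, with 1 array near the untreated level, and in Pcna and Mcm5 the groups lie closer together.

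Before treatment the arms were not alike in these genes. At 0 weeks the cell cycle mean was −0.09, −0.02 and −0.06 in PBS, 0.27, −0.01 and 0.80 in jak1i, and 0.62, 0.44 and 0.40 in jak3i. In jak3i against PBS, 36 of 39 genes were higher without overlap, against 8.78% of all genes, with a median of 0.57. None was called by limma (8 at an unadjusted p under 0.05), against 0% of all genes. In jak1i against PBS the median was 0.41 with 0 called (0 unadjusted), against 0% of all genes. At 0 weeks hair keratins were 0.85 to 2.56 in jak3i and 0.76 to 1.18 in PBS, and T cell means were 0.10 to 0.71 and 0.82 to 1.38. Macrophage means were 0.44 to 0.82 in jak3i and −0.38 to −0.31 in PBS, without overlap. The time course of the jak3i arm therefore starts from a higher level than in PBS. Each arm's start enters both its own time course and the comparisons of changes below.

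At 12 weeks all 39 genes were lower in jak3i than in PBS without overlap of the groups, against 19.7% of all genes that were lower in this way, and the median difference was −0.93. Called lower were 10 of 39, against 7.28% of all genes. They spanned most roles, namely Pcna, Rrm1 and Rrm2 of replication, Cdk1 and Foxm1, the kinases Plk1 and Aurka, Ube2c, and Cenpe and Nuf2 of the kinetochore. None of the 7 spindle genes, nor Mki67 and Top2a, was called.

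Pcna had the smallest adjusted p. It read 12.09, 12.08 and 12.21 in PBS and 11.44, 11.75 and 11.49 in jak3i, and was lower by 0.57 in size (difference −0.57, SE 0.14, limma adjusted p = 0.0123). Cdk1 read 9.23, 9.12 and 9.68 in PBS and 7.97, 7.88 and 8.38 in jak3i, a difference of −1.27 (SE 0.41, limma adjusted p = 0.0377). Plk1 read 8.46, 8.13 and 8.60 against 7.32, 6.61 and 7.43, a difference of −1.27 (SE 0.35, limma adjusted p = 0.0192). In all 3 genes every jak3i array lay below every PBS array.

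Aurka read 7.71, 7.58 and 7.91 in PBS and 6.73, 6.24 and 6.72 in jak3i, a difference of −1.17 (SE 0.36, limma adjusted p = 0.0293). Ube2c read 9.66, 9.52 and 10.01 against 8.42, 7.93 and 8.78, a difference of −1.36 (SE 0.47, limma adjusted p = 0.0483). Foxm1 read 7.52, 7.25 and 7.18 against 6.76, 6.92 and 6.75, a difference of −0.51 (SE 0.15, limma adjusted p = 0.023). Foxm1 was thus called here although its slope on hair keratin was near 0. Its further probe sets correlated with the one used at 0.571, 0.414 and 0.197, and whether this limits both values was not tested. Rrm2 differed by −0.84 (SE 0.25), Rrm1 by −0.62 (SE 0.19), Cenpe by −1.28 (SE 0.44) and Nuf2 by −1.05 (SE 0.31), all called. Of the genes without a call, Ccnb2 had the same size as Ube2c, −1.36 (SE 0.48, limma adjusted p = 0.0533), and Mki67 read 10.86, 10.84 and 11.22 against 10.13, 9.58 and 10.28, a difference of −0.98 (SE 0.42, limma adjusted p = 0.105).

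Further cycle genes were lower in the same comparison. Of 41 further mitosis genes 13 were called lower, of 23 further replication genes 4, and of 9 E2F and MuvB factors 2. Mybl2 differed by −1.79 (SE 0.49, limma adjusted p = 0.0178). Of 14 brakes, 4 were called higher, against 10% of all genes called higher, and 1 lower. Among those higher were Cdkn1c, a kinase inhibitor, at 1.53 (SE 0.42, limma adjusted p = 0.0192), and Ccng1 at 1.19 (SE 0.32, limma adjusted p = 0.0171). Cdkn1c was named after its value was seen.

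The 10 calls did not hold under every choice. With the hair keratin mean as a covariate 0 of 39 genes were called and the median difference was −0.12. With the skeletal muscle mean as a covariate 0 were called. Neither mean overlapped between these groups. Hair keratins were 0.75 to 2.25 in PBS and −3.02 to −1.15 in jak3i, and muscle −5.89 to −2.66 and −0.17 to 1.56. Both fits therefore extrapolate between the groups and cannot tell the covariate from the treatment. When PBS at 6 weeks replaced PBS at 12 weeks, 1 was called. Leaving out 1 array gave 0 without replicate 1 and 2 without replicate 2 of jak3i, and 1 without replicate 1 or 3 of PBS. In a fit to the 6 arrays alone, which takes the spread from these arrays only, 33 of 39 genes were called, and after centring 23. The share of all genes called in these fits is not given here, so the counts do not set the cell cycle genes apart. Beside the genes of the cycle, hair keratins had a median difference of −3.77, with 3 of 12 called lower. Also called lower were 8 of 11 T cell genes, 2 of 8 of stressed keratinocytes and 3 of 5 of B and plasma cells. Called higher were 5 of 5 sebaceous gland genes, 12 of 12 of skeletal muscle and 1 of 7 of fat cells. Among all genes 7.28% were called lower and 10% higher, so the 1 fat cell gene is near the share of all genes. The part of these in the cell cycle values was not tested.

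In jak1i against PBS at 12 weeks the median difference was −0.70, and 20 of 39 genes were lower without overlap, against 18.9% of all genes. None of the 39 was called by limma (14 at an unadjusted p under 0.05), although 13.4% of all genes were called in either direction. Plk1 came nearest, with 8.46, 8.13 and 8.60 in PBS and 6.94, 7.33 and 7.86 in jak1i, a difference of −1.01 (SE 0.35, limma adjusted p = 0.0577). Mki67 read 9.94, 10.04 and 10.91 in jak1i, where replicate 3 reached the PBS level, and differed by −0.68 (SE 0.42, limma adjusted p = 0.292). Ttk stood higher at 0.34 (SE 0.24). Under the keratin covariate the median was 0.01. Keratin means did not overlap (−2.5 to −0.96 in jak1i, 0.75 to 2.25 in PBS), so that fit extrapolates. Also called higher in jak1i were 12 of 12 skeletal muscle genes, 4 of 5 of sebaceous gland and 1 of 7 of fat cells. Called lower were 7 of 11 T cell genes, 4 of 8 of stressed keratinocytes and 3 of 7 of macrophages. Of B and plasma cell genes 2 of 5 were called lower. Among all 18193 genes 1246 were called higher and 1185 lower, and 1 fat cell gene is not read as a change of fat cells. The part of these cell types in the cell cycle values was not tested.

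**Figure D5:**
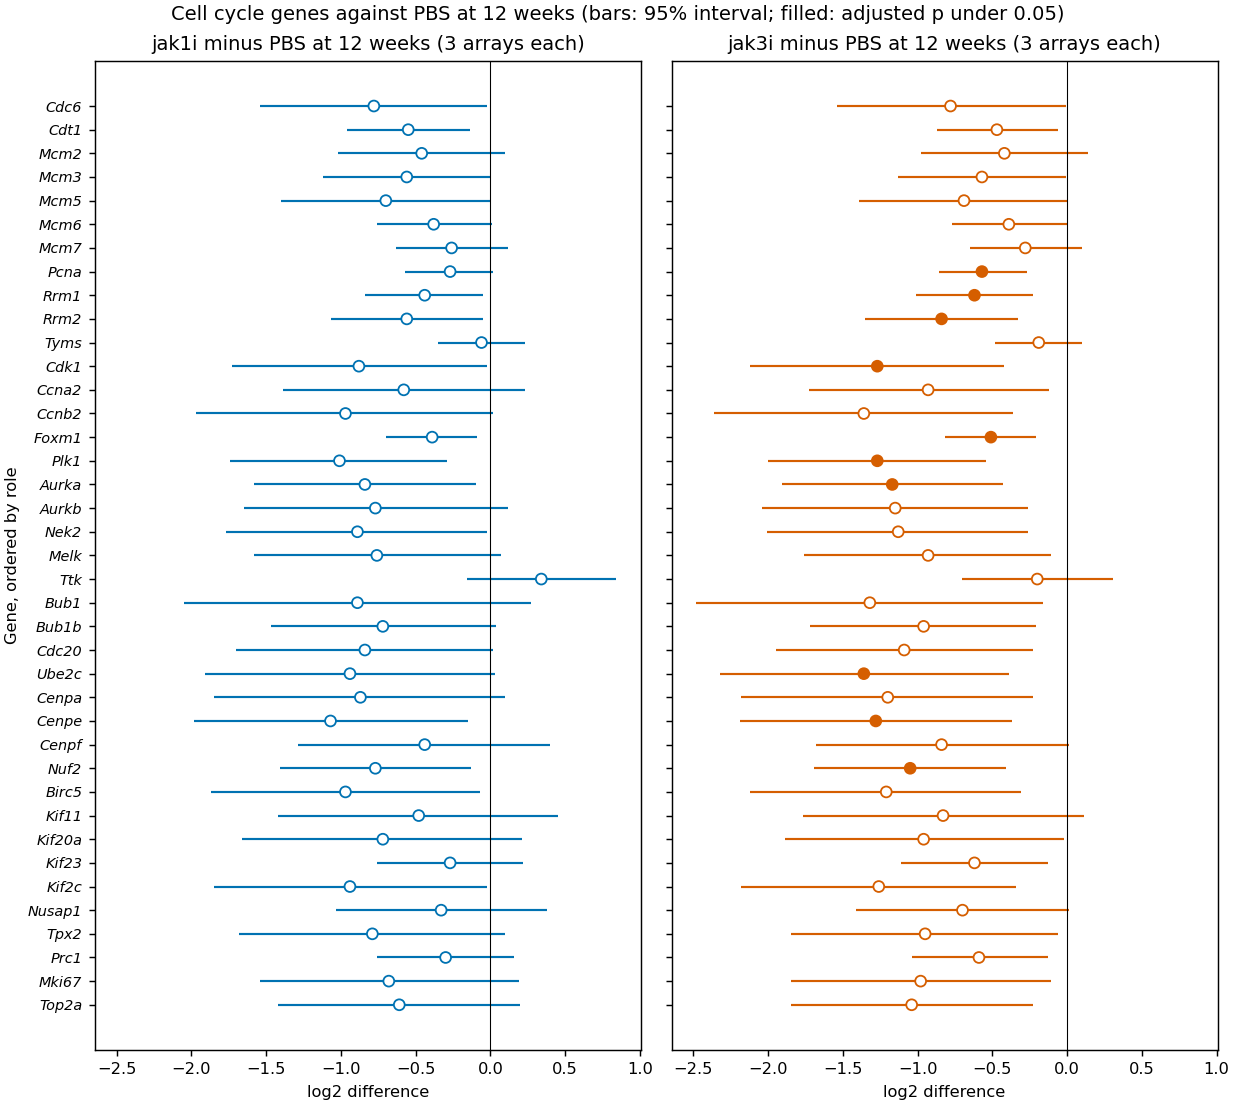
Points give the log2 difference from PBS at 12 weeks for each of the 39 genes, jak1i on the left and jak3i on the right, with 95% intervals of the limma fit as bars, 3 arrays per group, and filled points for an adjusted p under 0.05. All 39 points lie below 0 for jak3i, with 10 filled, and 38 for jak1i, with none filled.

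At 6 weeks the median difference from PBS was −0.92 in jak1i and −0.64 in jak3i. In jak1i 0 of 39 genes were called by limma (27 at an unadjusted p under 0.05), against 1.36% of all, and in jak3i 0 (7 unadjusted), against 1.94% of all. Without replicate 1 of jak3i 11 of 39 genes were called and the median was −1.16, and without replicate 2 of jak1i 1 was. Top2a, with 10.10, 10.81 and 11.08 in PBS and 9.08, 10.24 and 9.19 in jak1i, overlapped on replicate 2, the array with high hair keratins.

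The change from 0 to 12 weeks was compared between arms as an interaction. In jak3i minus PBS the median was −1.49, and 6 of 39 genes were called lower, against 1.96% of all genes. They were Pcna, Rrm1, Rrm2, Plk1, Aurka and Prc1. In jak1i minus PBS the median was −1.06, and 1 gene was called lower, Cdt1, against 3.86% of all genes. These comparisons share the PBS arrays, and the higher PBS values at 12 weeks and the higher start of the inhibitor arms both enter them. With the hair keratin mean as a covariate 0 genes were called in either. Keratin means at 0 and 12 weeks did not overlap in jak1i or jak3i, so these fits extrapolate. Without replicate 2 at 0 weeks or replicate 1 at 12 weeks of jak3i, or replicate 1 at 0 weeks or replicate 3 at 12 weeks of PBS, 0 of the 6 calls were left. For jak1i 0 were left without replicate 3 at 0 weeks, replicate 2 or 3 at 12 weeks, or any PBS array of the comparison.

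Both inhibitors were compared with each other at 4 matched times, with p adjusted over all genes in each. At 0, 6, 12 and 24 weeks 0 of 39 genes were called by limma, against 0% of all genes each time, and 0, 0, 1 and 0 had an unadjusted p under 0.05. The median differences of jak1i minus jak3i were −0.14, −0.18, 0.28 and 0.07. At 12 weeks Cdk1 differed by 0.39 with a 95% interval of −0.46 to 1.24, and Ube2c by 0.42 with an interval of −0.55 to 1.38. Pcna differed by 0.29 with an interval of 0.00 to 0.59, and Ttk, the gene with the unadjusted p, by 0.54 with an interval of 0.04 to 1.04 (limma adjusted p = 0.789). These intervals do not show that both compounds act alike on these genes.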

How the data were processed

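RNA of mouse skin was extracted with a miRNeasy kit and labelled with the 3′ IVT Express kit for Affymetrix arrays, per the labels' protocols. The authors deposited log2 values made with RMA, per the submitters' processing notes, with the version not given in the sources used here. The deposited table holds 45101 probe sets, of which 34945 had 1 gene symbol, 932 several, 9160 none and 64 were controls. Values ran from 2.59 to 14.69 and array medians from 6.05 to 6.24, and no further normalization was applied. The number of arrays limits the precision.

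Each gene was represented by its probe set of highest mean, by gene symbols of the array's annotation, and 28 of the 39 genes had several. Limma 3.58.1 in R 4.3.3 fitted 11 group means with 20 residual degrees of freedom, 21 contrasts and Benjamini-Hochberg adjustment over 18193 genes within each contrast, at 0.05. The keratin slope used the 11 groups plus the hair keratin mean and 18181 genes without the hair keratins. Scripts were tested on simulated data. Named were all members, per further list the 3 genes with the largest slope and PBS difference, and the 10 most alike. The members and lists were chosen with earlier results of these data known. Alternatives were centring, probe set choice, a filter on dim genes, covariates, blocks and leaving out arrays.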

Additional observations from a re-analysis of the deposited data

Results flagged for a closer look

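An interaction test in limma found that the change from 0 to 12 weeks differed between an inhibitor arm and the PBS arm for 7 pairs of gene and arm. In jak1i this was Cdt1, whose change minus the PBS change was −0.94 (SE 0.28, limma adjusted p = 0.0437). In jak3i the change of Pcna minus that in PBS was −0.91 (SE 0.2, limma adjusted p = 0.0223), and that of Rrm1 −1.09 (SE 0.27, limma adjusted p = 0.0304). For Rrm2 it was −1.23 (SE 0.35, limma adjusted p = 0.0466), and for Plk1 −1.83 (SE 0.5, limma adjusted p = 0.0431). Aurka had the largest of the 7, −1.92 (SE 0.51, limma adjusted p = 0.0382), and Prc1, which bundles microtubules of the midzone, had −1.08 (SE 0.31, limma adjusted p = 0.0494). Prc1 read 8.31, 8.12 and 8.13 in PBS at 0 weeks and 8.74, 8.64 and 8.90 at 12 weeks, while in jak3i it read 8.77, 8.69 and 8.59 and then 8.21, 7.98 and 8.31. With the hair keratin mean as a covariate none of the 7 was called, in a fit that extrapolates between keratin levels. Among all genes 1.96% were called lower in the jak3i comparison and 3.86% in that of jak1i, where 1 of 39 does not exceed the share of all genes. Leaving out 1 array at a time gave 0 to 7 calls in jak3i and 0 to 3 in jak1i.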

How the results depend on the processing

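Counts of the 39 genes called are given for the settings that moved them. The share of all genes called in each setting is not given beside them, so they do not show a shift particular to these genes. With arrays centred on their medians 24 genes were called in jak3i at 12 against 0 weeks, 23 in jak3i against PBS at 12 weeks and 13 in the jak3i change minus the PBS change. Dim genes, with fewer than 2 arrays above 7.4, were left out in another setting. The counts were then 1 in PBS at 12 against 0 weeks and 10 in jak1i at 6 against 0 weeks. They were 9 in jak3i at 12 against 0 weeks, 2 in jak1i against PBS at 12 weeks and 11 in the jak3i change. With all probe sets averaged per gene they were 5 in jak1i at 6 weeks, 2 in jak1i at 12 weeks, 5 in jak3i at 12 weeks, 3 in jak1i against PBS at 12 weeks and 3 in the jak1i change, and the median keratin slope was 0.15. With the hair keratin mean as a covariate they were 4 in PBS at 12 weeks, 12 in jak1i at 6 weeks, and 0 in jak1i and jak3i at 12 weeks, in jak3i against PBS and in both changes. With the compared arrays only they were 5 in PBS, 0 in jak1i at 6 and 12 weeks, 29 in jak3i at 12 weeks, 3 in jak1i and 33 in jak3i against PBS at 12 weeks, and 11 and 36 in the changes of jak1i and jak3i. With PBS at 6 weeks as the control, chosen after seeing the data, jak3i at 12 weeks had 1, and with the skeletal muscle covariate, also chosen then, 0. Where a covariate did not overlap between the groups, its fit extrapolates and cannot tell it from the treatment. The cause of these shifts was not tested.

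Leaving out 1 array at a time gave 28 to 34 keratin slopes, 0 to 1 in jak1i at 12 weeks, 0 to 21 in jak1i at 6 weeks, 0 to 3 in the jak1i change, 0 to 1 in jak1i against PBS at 6 and at 12 weeks, 0 to 4, 0 to 2 and 0 to 26 in jak3i at 12, 24 and 6 weeks, 0 to 7 in the jak3i change, and 0 to 10 and 0 to 11 in jak3i against PBS at 12 and 6 weeks. It gave 0 to 0 in the other comparisons. Over all settings the keratin slope count was 27 to 37, and no count changed direction. Of 328 alternatives, 253 left the count within 1.5 times. Counts of 0 that stayed at 0 are among these, so this share does not measure how stable the counts above 0 are.

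Replicate numbers were not used to pair the arrays in the main fit. Deviations from the group means correlated at −0.7 to 0.63 in 146 same-numbered pairs of arrays from different groups, with a median of −0.02. In 290 pairs of different number they correlated at −0.6 to 0.76, with a median of 0. Skin of 1 mouse may differ between weeks, so this check cannot show whether mice were sampled again. With the replicate number as a block 1 gene was called in jak1i at 6 weeks, and 28 keratin slopes were.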

Other observations

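Of the 55 further probe sets of the 39 genes, 34 had a correlation above 0.5 with the one used. In 3 it was below 0, those of Tyms, Nek2 and Cenpa. The further probe sets of Foxm1 reached 0.571 at most, and that of Ttk 0.463.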
